A study of Mus musculus with 75 samples.

Results

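Amino acid transporters of the proximal tubule were followed in RNA from mouse kidneys with unilateral ureter obstruction (UUO), an injury in which 1 ureter is ligated and the other, contralateral (CL) kidney serves as the control. They were 10 genes, chosen by symbol among the 32245 genes of the count table. Slc6a19, Slc6a18, Slc7a9, Slc7a13, Slc3a1 and Slc1a1 serve uptake from the tubular fluid, Slc7a7, Slc7a8 and Slc3a2 serve exit towards the blood, and Slc6a6 carries taurine. All 10 were in the table and all 10 passed the filter on low counts in each arm of the study.

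The study asked how activation of TIE2, an endothelial receptor tyrosine kinase, or loss of the growth factor PDGFB changes the obstructed kidney. Whole kidneys of adult mice were collected 3 days after UUO and gave 75 libraries in 12 groups. The ABTAA arm compared wild-type mice given human IgG Fc (IgG, 8 CL and 8 UUO libraries) with mice given ABTAA, an antibody that binds ANGPT2 and activates TIE2 (7 and 7). The Veptp arm compared noninduced Veptp wt/lox mice carrying Cdh5-CreERT2 (Veptp WT, 7 and 8) with Veptp iECKO mice, in which tamoxifen-induced Cdh5-CreERT2 deletes the phosphatase VEPTP in endothelial cells (6 and 8). The Pdgfb arm compared floxed Cre-negative mice (Pdgfb WT, 4 and 4) with Pdgfb iKO mice, in which inducible Actb-CreERT2 deletes Pdgfb in the whole body (4 and 4). The genetic lines had a mixed background, and the Pdgfb WT CL libraries include kidneys of 2 sham-operated mice that the labels do not mark. The labels do not state which kidneys came from the same mouse, but some titles share a number, which was used as a replicate block.

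The proximal tubule takes back nearly all filtered amino acids through transporters in its brush border, and releases them to the blood through exchangers in its basolateral membrane. Several of these carriers work as pairs of a heavy subunit, which brings the complex to the membrane, and a light subunit, which carries the amino acid. Inherited loss of Slc6a19 causes Hartnup disorder, loss of Slc3a1 or Slc7a9 causes cystinuria, and loss of Slc7a7 causes lysinuric protein intolerance.

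Libraries held between 172827 and 2341800 counts, with a median of 757897, so that precision differed between them. Levels are given as CPM, counts scaled to a library total of 1000000 after TMM within an arm. Titles had a plain form in 45 libraries and a split form, with a _ sign between letter and number, in 30. The forms stood apart across all genes, and the Pdgfb arm held the plain form alone. With 10 counts as the minimum, Xist alone was present in 28 libraries, Y-linked genes alone in 23, and both in 24, of which 22 had the plain form. A library with both may hold RNA of more than 1 mouse, which the labels do not state and which was not tested, so n counts libraries. The 18 proximal tubule markers were detected at summed levels of 14283 to 25383 CPM over CL kidneys and 5516 to 19305 CPM over UUO kidneys. Kidney as the tissue thus held by its markers in every library, while the CL and UUO ranges overlapped. Ptprb, the gene of VEPTP, had a median of 61.5 CPM in Veptp WT and 33.7 CPM in Veptp iECKO CL kidneys, and 41.9 and 28.1 CPM in UUO kidneys. Pdgfb had a median of 55.3 CPM (43.2 to 57.8) in Pdgfb WT and 37.2 CPM (33.4 to 40.6) in Pdgfb iKO UUO kidneys, but in CL kidneys it was 8.57 CPM (4.43 to 19.9) in WT and 17.2 CPM (16.6 to 24.9) in iKO. In these counts the CL libraries labelled Pdgfb iKO were thus not lower in Pdgfb, but levels were low and counts over a whole gene do not resolve a deleted part of it. The Veptp iECKO CL library B8 held 244 CPM of the injury gene Havcr1.

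In the mouse genome (GRCm38, mm10; GENCODE M21), Slc6a19 at chr13:73679745-73704865 and Slc6a18 at chr13:73661752-73678023, both on the minus strand, lay 1721 bases apart with 0 protein-coding genes between them. Slc7a7 at chr14:54369442-54417780 and Slc7a8 at chr14:54722209-54781946, also on the minus strand, were 304428 bases apart with 16 protein-coding genes between them. The remaining members stood alone, Slc7a9 at chr7:35448796-35466036, Slc7a13 at chr4:19818725-19842218, Slc3a1 at chr17:85028376-85064236, Slc3a2 at chr19:8706882-8723369, Slc1a1 at chr19:28835049-28913960 and Slc6a6 at chr6:91684053-91759066. Exons of Slc1a1 shared 2631 of 8257 bases with 4430402I18Rik, and exons of Slc3a1 shared 601 of 2271 bases with Prepl, both on the opposite strand. No source used here gives the strand setting of the counting, and if it did not use strand, reads of either gene in these stretches cannot be told apart.

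Promoter windows (250 bases before to 50 bases after a RefSeq transcript start, GRCm38.p6) were found for 7 of the 10 members. Those of the cystine transporter pair Slc3a1 and Slc7a9, of Slc6a19, whose level fell most often, and of Slc7a7 are shown, 5′ to 3′ on the strand of the gene, with motif matches in capitals. Slc3a1 is chr17:85028097-85028396 (plus strand), Slc7a9 is chr7:35448842-35449141 (plus strand), Slc6a19 is chr13:73692587-73692886 (minus strand), both inside the GENCODE gene body, and Slc7a7 is chr14:54417895-54418194 (minus strand).
Slc3a1: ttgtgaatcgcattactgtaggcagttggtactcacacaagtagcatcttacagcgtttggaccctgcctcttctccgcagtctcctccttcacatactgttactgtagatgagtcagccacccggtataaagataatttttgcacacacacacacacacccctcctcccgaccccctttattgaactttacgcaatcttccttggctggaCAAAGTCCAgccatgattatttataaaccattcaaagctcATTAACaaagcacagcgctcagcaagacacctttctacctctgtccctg
Slc7a9: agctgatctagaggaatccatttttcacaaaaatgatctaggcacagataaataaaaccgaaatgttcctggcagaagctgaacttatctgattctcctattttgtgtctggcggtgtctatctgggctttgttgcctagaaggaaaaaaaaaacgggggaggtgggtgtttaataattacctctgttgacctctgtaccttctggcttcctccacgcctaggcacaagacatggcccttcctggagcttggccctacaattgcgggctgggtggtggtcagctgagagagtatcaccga
Slc6a19: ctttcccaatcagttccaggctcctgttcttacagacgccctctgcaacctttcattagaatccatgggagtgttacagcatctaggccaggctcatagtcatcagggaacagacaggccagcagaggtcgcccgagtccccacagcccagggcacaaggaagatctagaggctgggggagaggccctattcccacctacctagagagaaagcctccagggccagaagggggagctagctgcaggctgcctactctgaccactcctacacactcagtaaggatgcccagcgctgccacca
Slc7a7: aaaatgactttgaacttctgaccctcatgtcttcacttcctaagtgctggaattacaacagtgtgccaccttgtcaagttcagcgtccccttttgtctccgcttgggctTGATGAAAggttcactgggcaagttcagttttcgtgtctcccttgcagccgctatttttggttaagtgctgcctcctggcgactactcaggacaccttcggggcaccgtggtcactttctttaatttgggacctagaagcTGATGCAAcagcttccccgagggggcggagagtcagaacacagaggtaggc
The motifs searched on both strands were a motif of the proximal tubule factor HNF1 (GTTAAT), a site of HNF4 (CAAAGTCCA) and an amino acid response element (TGATGNAA). Slc3a1 held the HNF4 site, beginning 39 bases before the start, and the HNF1 motif on the reverse strand from base 2 of the transcript. Slc7a7 held the amino acid response element 2 times, as TGATGAAA and TGATGCAA, and the windows of Slc7a9 and Slc6a19 held none of the 3 motifs. Slc7a7 had 5 windows and Slc7a9 2, of which the first is shown. The second window of Slc7a7 overlaps the first and holds the same TGATGCAA, its window 5 held 1 HNF1 motif, and the second window of Slc7a9 held no match. Of 32851 windows, 7.1% held the HNF1 motif, 0.475% the HNF4 site and 3.97% the amino acid response element. These are matches of letters, and no binding was measured.

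UUO lowered several carriers of the brush border, and Slc6a19 in each of the 3 control groups. In IgG-treated mice 7 of the 10 genes fell and none rose, where 18.4% of the 9579 genes tested were called lower. In Pdgfb WT mice 7 of 10 fell, where 19.4% of 10923 genes were called lower. In Veptp WT mice 2 fell and 1 rose, where 8.38% of 11916 genes were called lower and 10% higher. After treatment or deletion 4 of 10 fell in ABTAA-treated mice (12.5% of genes called lower), 1 of 10 in Veptp iECKO mice (3.48%) and 1 of 10 in Pdgfb iKO mice (2.41%). Thinned to the shallowest library of the arm, 1 member, Slc6a19, was called in IgG (8.93% of genes called lower) and 0 in ABTAA-treated mice (4.06%), and plain titles alone gave 0 in ABTAA-treated mice (4.38%). With the replicate block of titles that share a number, 5 members were called in Veptp WT and 4 in Veptp iECKO mice, where 29.8% and 20.5% of genes were called in either direction. In the Veptp arm every split title and no plain title shares a number, so pairing and title form cannot be told apart in this block. In Veptp WT mice 1 member was called after thinning (Slc1a1, 2.89% of genes in either direction), and Slc6a19 alone within plain titles (14%), without a filter beyond 1 count (9.75%) and with edgeR's exact test (19.2%). The median log2 fold change of the 10 genes was -0.64 in IgG, -0.59 in ABTAA, -0.27 in Veptp WT, -0.45 in Veptp iECKO, -0.88 in Pdgfb WT and -0.33 in Pdgfb iKO mice, while the median of all genes lay between -0.01 and 0.04. Without TMM factors that median was 0.21 in IgG and 0.40 in Pdgfb WT mice, and the split of all calls was 2390 higher and 1123 lower in IgG (1531 and 1759 with TMM) and 4335 and 1166 in Pdgfb WT mice (1959 and 2118). In ABTAA, Veptp WT, Veptp iECKO and Pdgfb iKO mice it was 1559 and 825, 1368 and 550, 607 and 246, and 560 and 156, in place of 1219 and 1201, 1195 and 999, 533 and 415, and 432 and 263. Calls were made with edgeR's quasi-likelihood test at a Benjamini-Hochberg adjusted p of 0.05 over all genes of the arm. In whole-kidney RNA, fewer proximal tubule cells and less RNA per cell cannot be told apart, and 16 of 18 proximal tubule markers fell in the same IgG comparison.

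**Figure D1:**
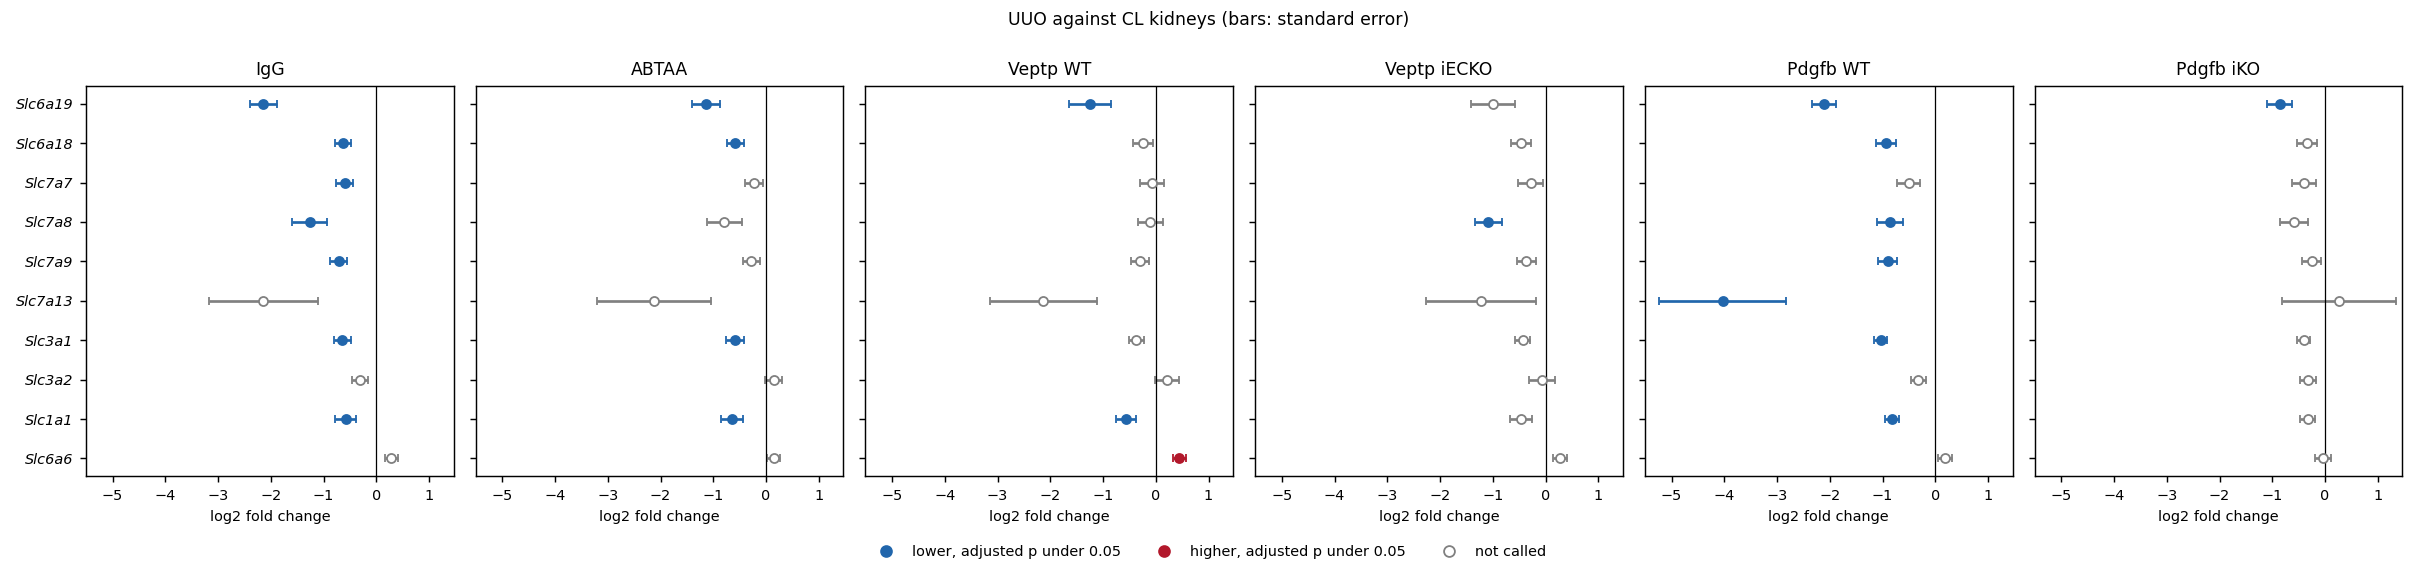
Log2 fold change of each of the 10 transporter genes between UUO and CL kidneys (x axis, edgeR) in the 6 treatments or genotypes, with points for estimates, bars for standard errors and filled points for calls. Slc6a19 lies to the left of 0 in all 6, from -2.15 in IgG to -0.86 in Pdgfb iKO mice, and Slc6a6 lies between -0.04 and 0.45.

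Slc6a19, the main sodium-coupled carrier of neutral amino acids in the brush border, was measured at 379, 468 and 649 CPM (lowest, median and highest) in IgG CL kidneys and at 56.9, 101 and 229 CPM in IgG UUO kidneys. The ranges did not overlap, as for 5.26% of all genes in this direction. Its log2 fold change was -2.15 (SE 0.26, adjusted p = 5.55e-08, edgeR), a 4.42-fold lower level. In Pdgfb WT mice the CL libraries held 590, 420, 602 and 400 CPM and the UUO libraries 84.7, 85.2, 182 and 109 CPM. Again no UUO library reached the lowest CL library, which held for 17.3% of genes, and the fold change was 4.32-fold (log2 -2.11, SE 0.23, adjusted p = 9.6e-08). ABTAA-treated mice had 397, 417 and 735 CPM in CL and 94.9, 195 and 397 CPM in UUO kidneys, where the log2 value was -1.14 (SE 0.26, adjusted p = 0.00118). The highest UUO library (G5) and the lowest CL library (N_12) both stood at 397 CPM, apart by less than 1 count, and the call was lost within plain titles (-0.64, adjusted p = 0.161) and after thinning (-0.91, 0.058).

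In the Veptp arm the Slc6a19 groups overlapped. Veptp WT kidneys held 206, 245 and 588 CPM (CL) and 74.0, 112 and 328 CPM (UUO), and the log2 fold change was -1.25 (SE 0.40, adjusted p = 0.0275). Veptp iECKO kidneys held 216, 357 and 461 CPM (CL) and 58.9, 106 and 419 CPM (UUO), and the log2 fold change of -0.99 (SE 0.42) did not pass the test (adjusted p = 0.155). The form of the library title moved with this gene. Veptp WT CL libraries with plain titles held 505 to 588 CPM and those with split titles 206 to 245 CPM, without overlap, and in CL kidneys of the arm split libraries were lower by a log2 value of -0.98 (adjusted p = 0.000551, where 44.2% of genes differed between the forms). Within the plain form the log2 fold changes of Slc6a19 with UUO were -1.22 in Veptp WT (adjusted p = 0.0139) and -0.64 in Veptp iECKO mice (adjusted p = 0.752), and within the split form -1.40 (adjusted p = 2.23e-05) and -1.98 (adjusted p = 4.04e-07). With the form as a covariate the responses were -1.36 (adjusted p = 6.49e-06) and -1.48 (adjusted p = 1.52e-05), and with the replicate block the iECKO value was -1.32 (adjusted p = 0.000256). The difference in the response between forms was not called for Slc6a19 or any other member in either arm, where 0% of genes in the ABTAA arm and 0.369% in the Veptp arm were called. Without 1 of the libraries F3, A8, F9, H9, H_3, H_5 or H_6 the adjusted p in Veptp WT mice lay between 0.0510 and 0.0652, after thinning it was 0.368 (log2 -1.11), and without the iECKO library E9 the iECKO value was -1.33 (adjusted p = 0.0366).

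Pdgfb iKO mice had 500, 635, 476 and 445 CPM of Slc6a19 in CL and 304, 295, 370 and 165 CPM in UUO kidneys. The UUO libraries were all below the CL libraries (5.13% of genes), and the log2 fold change was -0.86 (SE 0.23, adjusted p = 0.024). Without library D10, E11 or F12 the call was lost, with adjusted p of 0.0912, 0.0571 and 0.104. It was also lost with Y-linked genes as a covariate (-0.70, adjusted p = 0.110) and after thinning (-0.73, 0.0938). Of these libraries 3 in CL held Xist alone and 1 Y-linked genes alone, and all 4 in UUO held both.

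Slc6a18, a carrier of glycine and other small neutral amino acids in the late proximal tubule and the neighbour of Slc6a19, fell less. It was at 616, 830 and 1110 CPM in IgG CL and 352, 535 and 744 CPM in IgG UUO kidneys, with 6 of 8 UUO libraries below the lowest CL library (log2 -0.63, SE 0.15, adjusted p = 0.00111). In ABTAA-treated mice it was at 770, 821 and 1186 CPM and 465, 570 and 724 CPM without overlap, as for 2.92% of genes in this direction (log2 -0.58, SE 0.16, adjusted p = 0.0057). Pdgfb WT kidneys had 530, 813, 991 and 811 CPM in CL and 329, 422, 423 and 477 CPM in UUO, also without overlap (log2 -0.93, SE 0.19, adjusted p = 0.00027). The values of -0.24 in Veptp WT, -0.46 in Veptp iECKO and -0.34 in Pdgfb iKO mice did not pass the test. Thinning ended the calls in IgG (-0.43, adjusted p = 0.119) and ABTAA-treated mice (-0.28, 0.474), as did plain titles alone in the latter (-0.41, 0.153).

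Within each library the ratio of Slc6a19 to Slc6a18 counts changed as well. Its median log2 value was -0.74 in IgG CL and -2.53 in IgG UUO kidneys, where the ranges did not overlap, and -0.84 and -2.04 in Pdgfb WT kidneys, again without overlap. In ABTAA-treated mice it was -0.95 and -1.77, in Veptp WT mice -1.29 and -2.25, in Veptp iECKO mice -1.42 and -2.21, and in Pdgfb iKO mice -0.61 and -0.94, all with overlapping ranges. By contrast the ratio of Slc7a9 to Slc3a1, the light and heavy subunit of the cystine transporter, overlapped between CL and UUO kidneys in all 6 comparisons, with differences of medians between -0.19 and 0.46. These ratios are descriptions of unequal change and were not tested.

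**Figure D2:**
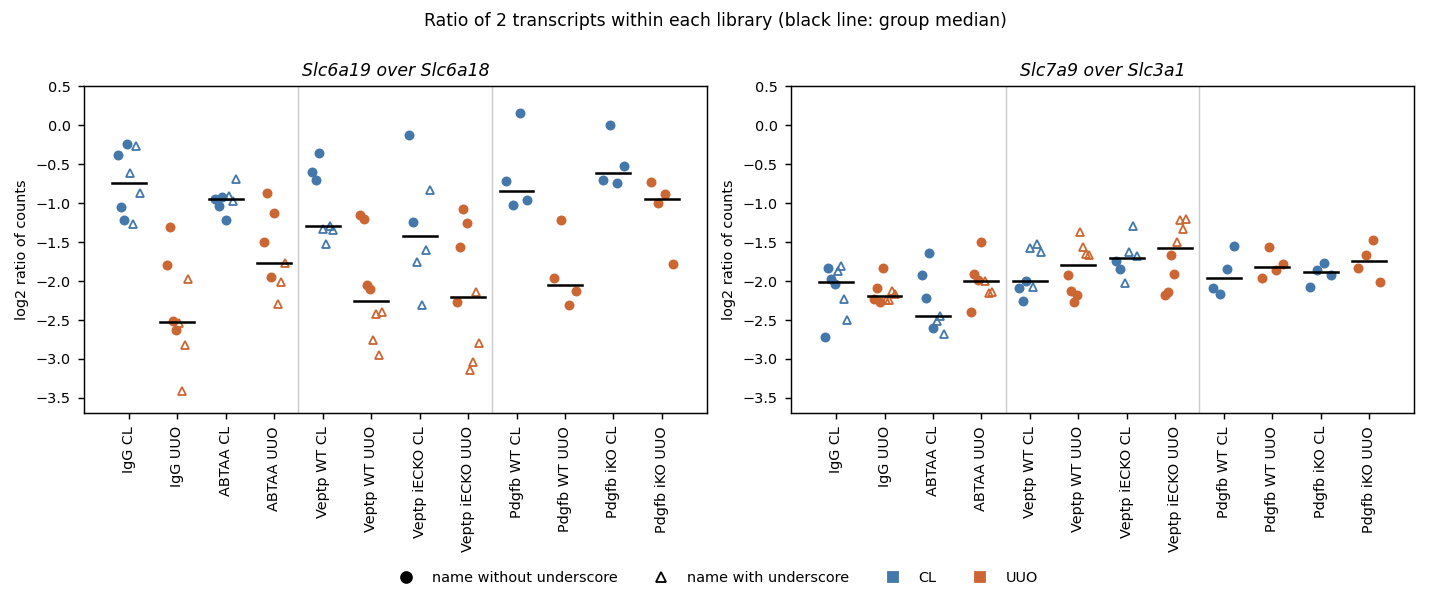
Log2 ratio of the counts of a pair of transporter genes in each library (y axis) by group (x axis), one point per library, triangles for split titles and a line at the group median. Slc6a19 over Slc6a18 drops from a median of -0.74 in IgG CL to -2.53 in IgG UUO kidneys, whereas Slc7a9 over Slc3a1 keeps overlapping ranges.

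Slc3a1, the heavy subunit that brings the cystine and dibasic amino acid transporter to the brush border, was at 564, 781 and 1023 CPM in IgG CL and 350, 521 and 603 CPM in IgG UUO kidneys. The groups overlapped, and the log2 fold change was -0.65 (SE 0.16, adjusted p = 0.00186). Within a title form, at 4 against 4 libraries, they did not overlap, with 564 to 712 CPM in CL against 350 to 456 CPM in UUO plain libraries and 850 to 1023 CPM against 586 to 603 CPM in split ones. The share of all genes without overlap within a form is not given here. In Pdgfb WT mice, also at 4 against 4 libraries, 17.3% of genes had every UUO library below every CL library. ABTAA-treated mice had 532, 777 and 1076 CPM and 394, 547 and 664 CPM (log2 -0.59, SE 0.17, adjusted p = 0.00931). In Pdgfb WT mice the CL libraries held 581, 699, 801 and 637 CPM and the UUO libraries 280, 353, 342 and 351 CPM, without overlap (log2 -1.03, SE 0.13, adjusted p = 4.41e-07). Pdgfb iKO libraries held 661, 733, 608 and 603 CPM in CL and 517, 489, 513 and 451 CPM in UUO, which did not overlap, but the log2 fold change of -0.40 did not pass the test (SE 0.13, adjusted p = 0.0582; 0.0395 without the Pdgfb WT library E4). Values of -0.37 in Veptp WT (adjusted p = 0.0716) and -0.43 in Veptp iECKO mice (adjusted p = 0.0676) missed the threshold, and with the title form as a covariate they were -0.37 (adjusted p = 0.012) and -0.48 (adjusted p = 0.00419). The replicate block gave -0.44 (adjusted p = 0.0115) and -0.40 (adjusted p = 0.0428). Calls of Slc3a1 were lost without TMM factors in IgG (-0.45, adjusted p = 0.0516) and ABTAA-treated mice (-0.47, 0.0749), after thinning in both (-0.41, 0.174 and -0.39, 0.299), and within plain titles in the latter (-0.37, 0.156).

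Slc7a9, its light subunit, was at 85.5, 184 and 247 CPM in IgG CL and 72.4, 116 and 138 CPM in IgG UUO kidneys, with overlap (log2 -0.71, SE 0.16, adjusted p = 0.000509). In Pdgfb WT kidneys it was at 162, 238, 189 and 141 CPM in CL and 72.1, 97.7, 116 and 102 CPM in UUO, without overlap (log2 -0.90, SE 0.18, adjusted p = 0.00022). It did not pass the test in the other 4 groups, at -0.28 in ABTAA, -0.30 in Veptp WT, -0.36 in Veptp iECKO and -0.25 in Pdgfb iKO mice. Thinning ended the calls in IgG (-0.16, adjusted p = 0.748) and Pdgfb WT mice (-0.73, 0.0531).

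Slc1a1, the carrier of glutamate and aspartate in the brush border, fell in 4 of the 6 groups. It went from 211, 272 and 377 CPM to 80.7, 196 and 263 CPM in IgG (log2 -0.58, SE 0.19, adjusted p = 0.018) and from 208, 252 and 407 CPM to 128, 169 and 263 CPM in ABTAA-treated mice (log2 -0.65, SE 0.21, adjusted p = 0.017; 0.0563 without library N_11). In Veptp WT mice it went from 236, 338 and 420 CPM to 107, 229 and 318 CPM (log2 -0.57, SE 0.19, adjusted p = 0.037), and the call was lost without G_5, G_6, G_7, G_8, H8, C9, G9 or H9 (adjusted p up to 0.0915). Pdgfb WT libraries held 263, 245, 242 and 251 CPM in CL and 155, 130, 152 and 126 CPM in UUO, without overlap (log2 -0.83, SE 0.13, adjusted p = 2.32e-05). The values in Veptp iECKO (-0.47; -0.43 with the replicate block, adjusted p = 0.047) and Pdgfb iKO mice (-0.33) did not pass the test. Without TMM factors the calls were lost in IgG (-0.37, adjusted p = 0.186), ABTAA (-0.51, 0.111) and Veptp WT mice (-0.41, 0.369), and after thinning in IgG (-0.05, 0.922) and ABTAA-treated mice (-0.73, 0.0948). Further losses came in IgG with a filter at a mean count of 20 (-0.47, 0.054), in ABTAA within plain titles (-0.55, 0.0517), and in Veptp WT mice within plain titles (-0.63, 0.0521), without a filter (-0.58, 0.088), with Xist (-0.45, 0.0567) or Y-linked genes (-0.52, 0.0631) as a covariate and with the exact test (-0.55, 0.107). Slc1a1 shares exon bases with 4430402I18Rik, and the part of this overlap in the result was not tested.

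At the basolateral side Slc7a8, a light subunit that exchanges neutral amino acids, went from 43.8, 69.8 and 146 CPM to 16.4, 29.1 and 67.7 CPM in IgG (log2 -1.27, SE 0.33, adjusted p = 0.00271). In Veptp iECKO mice it was the 1 member called, at 63.2, 141 and 179 CPM in CL and 22.8, 66.0 and 92.6 CPM in UUO kidneys with overlap (log2 -1.08, SE 0.25, adjusted p = 0.00536). Pdgfb WT libraries held 70.9, 110, 92.9 and 78.5 CPM in CL and 33.2, 33.9, 67.0 and 57.8 CPM in UUO, without overlap (log2 -0.86, SE 0.24, adjusted p = 0.00653). The values in ABTAA (-0.80, adjusted p = 0.0762; 0.0126 to 0.0438 without N_9, N_12 or G5), Veptp WT (-0.11) and Pdgfb iKO mice (-0.59) did not pass. In the ABTAA arm Slc7a8 was lower in split than in plain CL libraries by a log2 value of -0.999 (adjusted p = 1.67e-05, 27.2% of genes differing), while Slc3a1 (0.60, 5.26e-05), Slc1a1 (0.61, 0.000192) and Slc7a9 (0.36, 0.039) were higher in split libraries. In the Veptp arm Slc3a2 (0.77, 0.000438) and Slc1a1 (0.41, 0.0241) were higher in split CL libraries. For Slc7a8 the calls were lost after thinning in IgG (-1.24, adjusted p = 0.0506), Pdgfb WT (-0.75, 0.297) and Veptp iECKO mice (-0.70, 0.732), and without TMM factors in the latter 2 (-0.49, 0.0907 and -0.97, 0.0723), and within plain titles in Veptp iECKO mice (-0.83, 0.72). With the replicate block its ABTAA value was -0.78 (adjusted p = 0.0246). In Veptp iECKO mice, leaving out B8 gave 3 members called, with Slc6a18 (-0.60) and Slc3a1 (-0.49) added, leaving out E9 gave 3 with Slc6a19 and Slc3a1 added, and leaving out G8 gave 2 with Slc3a1 added. The share over all genes is not given for these fits, and whether the counts follow a general shift in calls was not tested.

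Slc7a7, which exchanges cationic for neutral amino acids, went from 123, 150 and 172 CPM to 70.1, 100 and 148 CPM in IgG (log2 -0.60, SE 0.16, adjusted p = 0.00437), with 7 of 8 UUO libraries below the lowest CL library, a call lost within plain titles (-0.34, adjusted p = 0.162) and after thinning (-0.76, 0.117). Its value was -0.50 in Pdgfb WT mice (adjusted p = 0.0731; 0.0220 without C12 and 0.0186 without D12) and between -0.39 and -0.07 in the other 4 groups, none past the test. Slc3a2, the heavy subunit that both Slc7a7 and Slc7a8 need, was called in 0 of the 6 comparisons, with log2 fold changes from -0.32 to 0.21. In IgG mice it was at 133, 189 and 253 CPM in CL and 139, 147 and 201 CPM in UUO kidneys, so that the UUO range lay inside the CL range. The ratio of Slc7a8 to Slc3a2 had a median log2 value of -0.75 in Veptp iECKO CL and -2.004 in UUO kidneys without overlap, and its ranges overlapped in the other 5 groups.

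Slc6a6, the carrier of the osmolyte taurine, went the other way or stayed near 0. In Veptp WT mice it rose from 241, 290 and 325 CPM to 308, 406 and 445 CPM, with 7 of 8 UUO libraries above the highest CL library (log2 0.45, SE 0.13, adjusted p = 0.0123). The call was lost without a filter (0.42, adjusted p = 0.12), within plain titles (0.50, 0.108), after thinning (0.54, 0.437) and with the exact test (0.47, 0.0608). The IgG value of 0.29 (SE 0.12) missed the threshold (adjusted p = 0.0563; between 0.0169 and 0.0495 without library P_4, D6, P_5 or P_6), and the other 4 lay between -0.04 and 0.28. In Veptp WT mice, leaving out library H9 kept Slc6a6 alone among the 3 members called.

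Slc7a13, a light subunit of Slc3a1 in the last segment of the proximal tubule that carries aspartate, glutamate and cystine and is known to be higher in males, varied from 0 to 1300 CPM within CL kidneys. Libraries with Xist alone held 0 to 12.9 CPM in CL kidneys (median 1.70, 14 libraries), those with both Xist and Y-linked genes 118 to 1160 CPM (median 350, 9 libraries), and those with Y-linked genes alone 531 to 1300 CPM (median 925, 13 libraries). In UUO kidneys the same classes held 0 to 165 CPM (median 4.26, 14 libraries), 9.53 to 597 CPM (median 108, 15 libraries) and 125 to 436 CPM (median 292, 10 libraries). The value of 165 CPM was library C8 (Veptp iECKO UUO), the shallowest of its arm with 178137 counts and with 6 Y-linked counts, and the other 13 UUO libraries of that class held at most 7.60 CPM.

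The groups held an uneven mix of these libraries, and its part in the group comparisons of Slc7a13 or other members was not tested beyond covariates. The log2 fold change of Slc7a13 with UUO was between -2.14 and -1.22 in the ABTAA and Veptp arms with SE of 1.02 to 1.08 and none past the test, -4.03 (SE 1.20, adjusted p = 0.00988) in Pdgfb WT and 0.26 (SE 1.09) in Pdgfb iKO mice. With the summed level of the Y-linked genes as a covariate, an alternative chosen after seeing these levels, it was -2.29 in IgG (adjusted p = 7.52e-06), -1.99 in ABTAA (7.78e-05), -1.37 in Veptp iECKO (0.0184) and -3.77 in Pdgfb WT mice (3e-05), and it missed the threshold in Veptp WT (-1.02, 0.0681; -1.99, 0.021 with the replicate block alone) and Pdgfb iKO mice (-0.90, 0.495). Without the CL library E4 the Pdgfb WT call was lost (-2.91, adjusted p = 0.0574), as with DESeq2 (-4.01, 0.0752), and without the CL library B10 the Pdgfb iKO value was 6.19 (adjusted p = 0.0265). Its relative Slc7a12, known to be higher in females, ran the opposite way, at 150 to 309 CPM in CL kidneys with Xist alone and 0.570 to 35.8 CPM in those with Y-linked genes alone. Slc6a18 in CL kidneys was 685 to 1186 CPM with Xist alone and 497 to 820 CPM with Y-linked genes alone, with overlap.

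**Figure D3:**
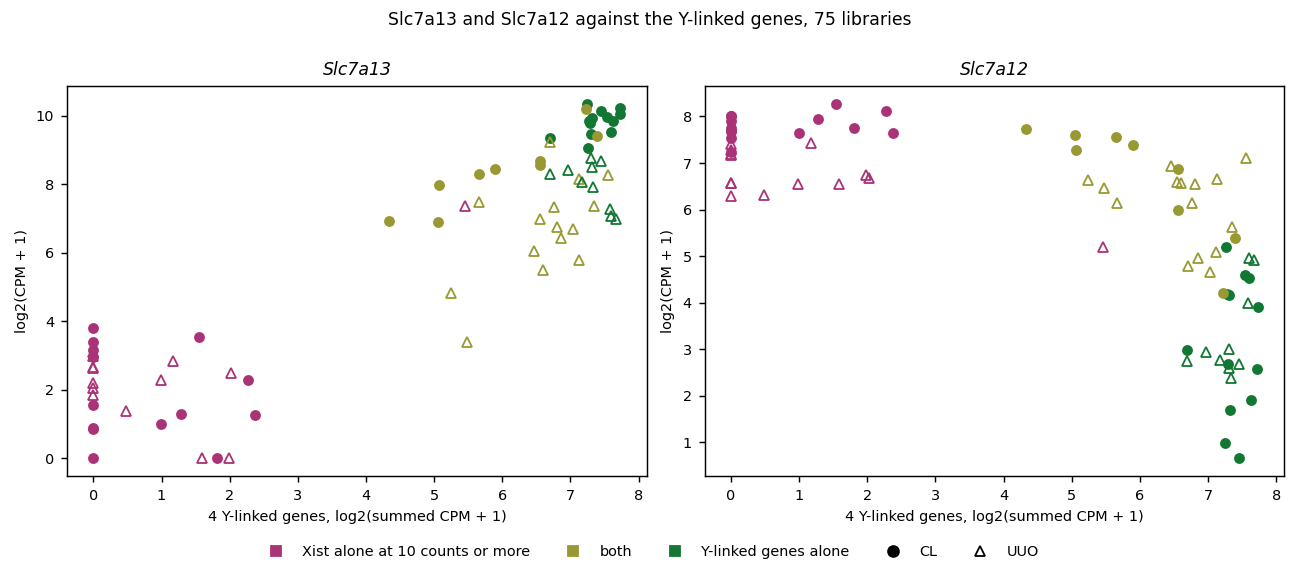
Levels of Slc7a13 and Slc7a12 (y axes, log2(CPM + 1)) against the summed level of 4 Y-linked genes (x axes, log2(CPM + 1)), one point per library, coloured by the sex-linked genes present at 10 or more counts, circles for CL and triangles for UUO kidneys. Slc7a13 is low on the left, with Xist alone (medians 1.70 CPM in CL and 4.26 CPM in UUO), and high on the right, with Y-linked genes alone (925 and 292 CPM), and Slc7a12 runs the other way.

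Between ABTAA- and IgG-treated UUO kidneys 0 of the 10 members and 0% of the genes were called (edgeR, with 344 genes at an unadjusted p under 0.05; DESeq2 and edgeR's exact test also called 0). The member with the lowest unadjusted p was Slc6a19, whose UUO medians were 195 CPM with ABTAA and 101 CPM with IgG, with overlapping ranges. Its log2 difference was 0.88 (SE 0.26, 95% interval 0.34 to 1.41, adjusted p = 0.999), and of the alternatives run it passed in 1, without a filter on low counts (0.86, adjusted p = 0.0179). In plain libraries the medians were 267 CPM with ABTAA and 105 CPM with IgG, and in split libraries 123 and 101 CPM. Within the plain form the log2 difference was 0.98 (adjusted p = 0.835) and within the split form 0.48 (adjusted p = 0.9997). The other 9 differences lay between -0.13 and 0.27. For Slc6a19 the responses to UUO differed by 1.00 (SE 0.36, not past the threshold), and in CL kidneys the differences lay between -0.27 and 0.25, with 0 genes called in both (323 and 311 genes at an unadjusted p under 0.05).

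Between Veptp iECKO and WT UUO kidneys 0 members and 0% of the genes were called by edgeR (424 genes at an unadjusted p under 0.05; DESeq2 called 1 gene and the exact test 4). Slc6a19 differed by 0.17 (95% interval -0.63 to 0.97), Slc3a1 by 0.02 (-0.26 to 0.30), Slc1a1 by 0.02 (-0.36 to 0.40) and Slc7a8 by -0.47 (-0.95 to 0.00083). All 4 of these intervals included 0. H_3, H_4, H_7 and H_8 are UUO libraries that share a number with a CL library of the other genotype, and whether their labels are right was not tested. With these genotypes exchanged 0 members and 0 genes were called between UUO groups (176 genes at an unadjusted p under 0.05), and with UUO 4 members in Veptp WT (15.2% of genes) and 1 in Veptp iECKO mice (9%). In CL kidneys and for the responses to UUO 0 members and 0 genes were called as well (230 and 323 genes at an unadjusted p under 0.05).

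Members were called between genotypes in the Pdgfb arm. In UUO kidneys labelled Pdgfb iKO, 4 of the 10 members were higher than in Pdgfb WT UUO kidneys and none lower, where 12% of genes were called higher and 6.6% lower. All 4 of these iKO libraries held both Xist and Y-linked genes, while 2 of the WT libraries held both and 2 Xist alone. Whether RNA of more than 1 mouse in a library has a part in these differences was not tested. Thinned to the shallowest library of the arm, Slc6a19 alone was called (log2 1.67, adjusted p = 5.54e-05), where 5.65% of genes were called higher. Slc6a19, at 84.7, 85.2, 182 and 109 CPM in WT and 304, 295, 370 and 165 CPM in iKO UUO kidneys, was 2.42-fold higher (log2 1.28, SE 0.23, adjusted p = 0.000342), with 3 of 4 iKO libraries above every WT library. For Slc3a1 the UUO libraries held 280, 353, 342 and 351 CPM in WT and 517, 489, 513 and 451 CPM in iKO mice (log2 0.57, SE 0.13, adjusted p = 0.00239). These ranges did not overlap, as for 12.7% of genes in this direction.

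Slc7a9 held 72.1, 97.7, 116 and 102 CPM in WT and 187, 155, 144 and 112 CPM in iKO UUO kidneys, with 3 of 4 iKO libraries above the WT range (log2 0.58, SE 0.18, adjusted p = 0.0244). Slc1a1 held 155, 130, 152 and 126 CPM in WT and 230, 197, 219 and 145 CPM in iKO UUO kidneys, again with 3 of 4 above (log2 0.47, SE 0.14, adjusted p = 0.0176). In both genes the low iKO library was F12, which was the lowest of its group in 8 of the 10 members and in the summed proximal tubule markers. Slc6a18 held 329, 422, 423 and 477 CPM in WT and 560, 591, 610 and 566 CPM in iKO UUO kidneys without overlap, but its log2 difference of 0.50 missed the threshold (SE 0.19, adjusted p = 0.0637; 0.0300 to 0.0369 without E4, B10 or D10). Slc7a13 differed by 3.34 (SE 1.24, adjusted p = 0.0621; 0.00858 to 0.0465 without E4, F4, B10, A11, B11 or F12), where 2 of 4 WT libraries held Xist alone and all 4 iKO libraries held both Xist and Y-linked genes. Slc7a7 (0.21), Slc7a8 (0.29), Slc3a2 (0.22) and Slc6a6 (-0.23) were not called. Without D11, F10 or A12 the count fell to 2 members, with Slc6a19 and Slc3a1 called in each of the 16 fits that left out 1 library, and the calls of Slc7a9 and Slc1a1 were lost in 5 and 4 of them. Slc1a1 was also lost without a filter (0.44, adjusted p = 0.0518) and with Y-linked genes as a covariate (0.42, 0.0582). Without TMM factors, which moved the median of all genes to -0.28, 2 members were called, Slc6a19 higher (0.99, adjusted p = 0.00356) and Slc6a6 lower (-0.51, 0.011), and the split of all calls was 667 higher and 2383 lower in place of 1314 and 721.

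**Figure D4:**
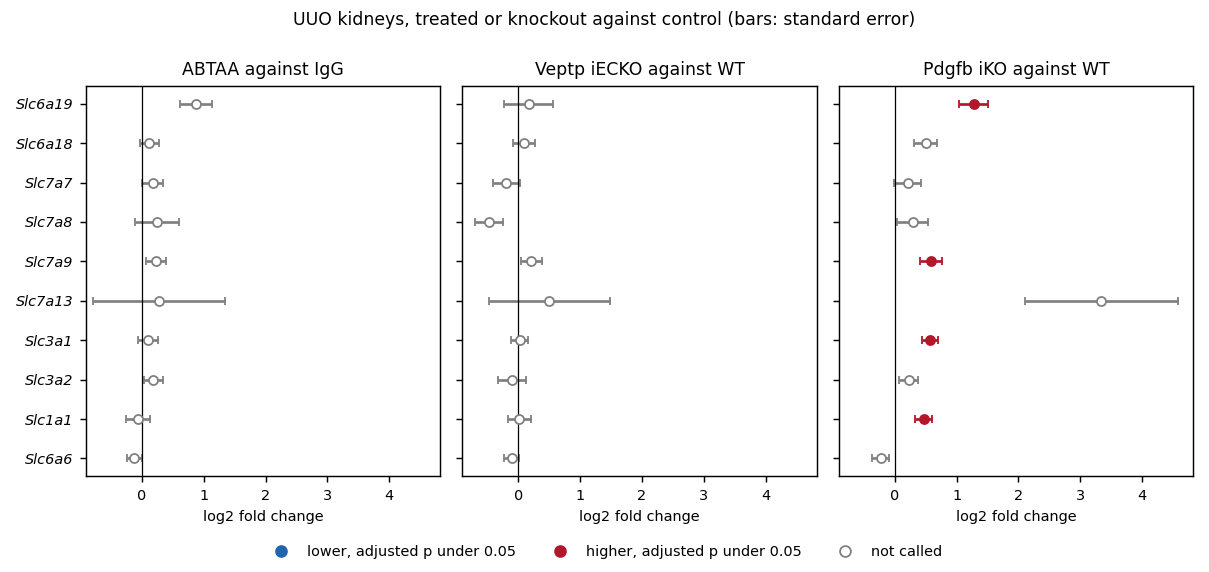
Log2 difference of each transporter gene between treated or knockout and control UUO kidneys (x axis, edgeR) in the 3 arms, with points for estimates, bars for standard errors and filled points for calls. In the Pdgfb arm Slc6a19 lies at 1.28 and Slc3a1 at 0.57, while in the ABTAA and Veptp arms 0 of the 10 genes were called.

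In CL kidneys of the Pdgfb arm 0 of the 10 members and 0 genes were called (379 genes at an unadjusted p under 0.05), and apart from Slc7a13 (-0.95, SE 1.03) the differences lay between -0.09 and 0.23. The response to UUO itself differed between genotypes for Slc6a19 (difference of log2 fold changes 1.25, SE 0.32, adjusted p = 0.0149) and Slc3a1 (0.63, SE 0.18, adjusted p = 0.0284), 2 of 10 members higher where 6.66% of genes were called higher. Slc7a9 (0.65, adjusted p = 0.123), Slc6a18 (0.59, 0.183) and Slc1a1 (0.50, 0.115) missed the threshold, which Slc6a18 passed without D10 (0.81, 0.0429) and Slc1a1 without F12 (0.64, 0.0233). Slc7a13 (4.29, adjusted p = 0.105) passed without B10 (10.2, 0.000416) or B11 (6.12, 0.0467). Without A12 the call of Slc6a19 was lost (1.08, adjusted p = 0.0537), and without A5, E10, A11, B11, E11 or A12 that of Slc3a1 was lost (adjusted p up to 0.0684), as without a filter (0.62, 0.0564). Thinned, Slc6a19 alone was called (2.36% of genes called higher). Without TMM factors 0 members were called, Slc6a19 having 0.96 (adjusted p = 0.0633), and the split of all calls was 315 higher and 631 lower in place of 727 and 207. Pdgfb WT and iKO comparisons with CL kidneys have their own controls, but the difference between UUO groups and the interaction use the same UUO libraries.

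**Figure D5:**
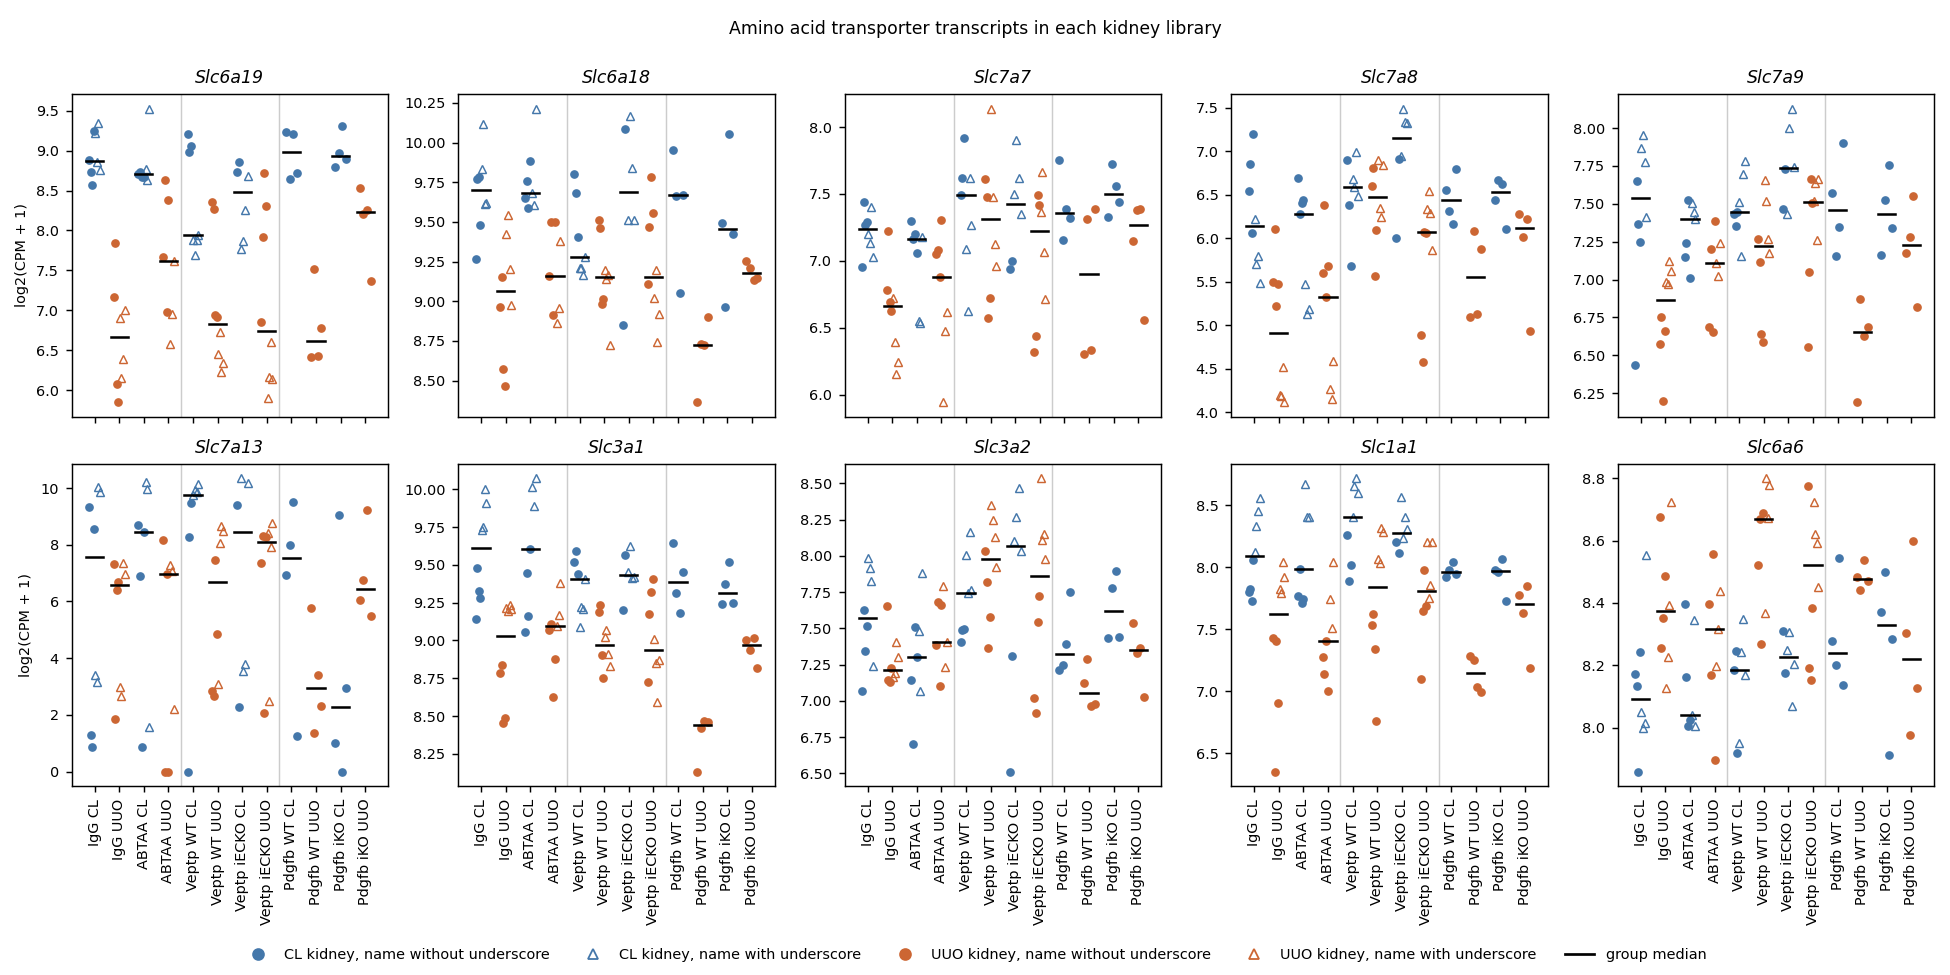
Level of each of the 10 transporter genes in all 75 libraries (y axes, log2(CPM + 1)) by group (x axes), one point per library, triangles for split titles, and a line at the group median. Slc6a19 has UUO medians of 97.0 to 299 CPM against CL medians of 245 to 505 CPM, and Slc7a13 spreads from 0 to 1300 CPM within CL kidneys.

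Ordered by their medians, the 12 groups of Slc6a19 ran from Pdgfb WT UUO (97.0 CPM), IgG UUO (101), Veptp iECKO UUO (106) and Veptp WT UUO (112) over ABTAA UUO (195), Veptp WT CL (245) and Pdgfb iKO UUO (299) to Veptp iECKO CL (357), ABTAA CL (417), IgG CL (468), Pdgfb iKO CL (488) and Pdgfb WT CL (505). Neighbours in this order overlapped in range, and groups of different arms were scaled separately.

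The genes around the transporters were described from lists. Over all genes, 16% were called higher and 18.4% lower in IgG mice, and 12% and 6.6% between Pdgfb UUO groups. Of the partners that bring Slc6a19 or other carriers to the brush border, Pdzk1 (log2 -1.05, adjusted p = 3.75e-08) and Cltrn, the gene of collectrin (-0.93, 1.01e-05), fell in IgG mice. In Pdgfb iKO against WT UUO kidneys Pdzk1 (0.87) and Cltrn (1.02) were higher. Of 9 brush border peptidases tested, which release amino acids from peptides, 7 fell and 0 rose in IgG mice, among them Mep1b (-1.90), Dpep1 (-1.60), Ggt1 (-1.02) and Ace (-1.02). In Pdgfb iKO UUO kidneys 5 of 9 were higher, among them Mep1b (1.73), Dpep1 (1.17), Ggt1 (0.95) and Mep1a (0.91).

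Other amino acid transporters did not share 1 direction. Of 37 listed, 21 were tested in the ABTAA arm, and with UUO in IgG mice 8 rose and 6 fell. Among them the cationic carrier Slc7a1 (1.76) and the glutamine carrier Slc38a2 (1.21) rose, and Slc6a20b (-1.05) and the peptide carrier Slc15a2 (-1.14) fell. In Pdgfb iKO UUO kidneys 3 of 25 were higher, near the share over all genes (12%), and 3 lower (6.6% over all genes), with Slc6a20b (0.98) among the former and Slc7a2 (-1.47), Slc7a1 (-1.21) and Slc38a2 (-0.48) the latter. Of 11 genes of the ATF4 response to amino acid shortage, 8 rose and 1 fell in IgG mice, with Asns (2.25), Mthfd2 (2.20), Nupr1 (1.78) and Atf3 (2.87) among the risers and Shmt2 (-1.10) the 1 that fell, and in Pdgfb iKO UUO kidneys Shmt2 was higher (0.97) and Nupr1 lower (-0.67). Of 6 osmolyte and taurine genes, Csad, an enzyme of taurine synthesis (-1.03), and Slc5a3, the inositol carrier (-0.87), fell and the osmotic factor Nfat5 rose (0.50), and in Pdgfb iKO UUO kidneys Csad (0.88) and Cdo1 (0.44) were higher.

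Markers of the tubule and of other cell types moved in the same comparisons. Of 18 proximal tubule markers 16 fell in IgG and 18 in Pdgfb WT mice with UUO, with medians of -1.24 and -1.62, among them Gatm (-1.82 in IgG), Miox (-1.80), Fbp1 (-1.37) and Slc13a3 (-1.23). In Pdgfb iKO against WT UUO kidneys 14 of 18 were higher (median 1.05), among them Miox (1.88), Slc34a1 (1.75), Gatm (1.49) and Fbp1 (1.27), and their summed level ranged from 5516 to 6905 CPM in WT and from 10031 to 17958 CPM in iKO libraries. Of 7 markers of the last proximal segment 4 fell in IgG mice, among them Slc22a7 (-2.82), and 2 were higher in Pdgfb iKO UUO kidneys. Of 11 markers of the loop, distal tubule and collecting duct 9 fell in IgG mice (median -1.71) and 9 were higher in Pdgfb iKO UUO kidneys.

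Of 8 injury markers 8 rose in IgG mice, Havcr1 by 7.03, and 2 were lower in Pdgfb iKO UUO kidneys, Krt20 (-1.08) and Vcam1 (-0.87). Mesenchymal markers rose in 7 of 7 and leukocyte markers in 7 of 7 in IgG mice, and 6 and 4 of them were lower in Pdgfb iKO UUO kidneys, where the summed mesenchymal level was 413 to 991 CPM against 1170 to 1596 CPM in WT. Endothelial markers rose in 2 and fell in 1 of 6 in IgG mice and were lower in 3 of 6 in Pdgfb iKO UUO kidneys. Podocyte markers were called in 0 of 3, fat markers in 1 of 2 (higher) and sex-linked genes in 0 of 5 in IgG mice, and none of these 3 lists had a call between Pdgfb UUO groups. The part of these shifts in the results for the transporters was not tested.

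The genes most like each transporter across the 75 libraries, by Pearson's r of log2(CPM + 1) among 9554 genes tested in every arm, are given as a description, since libraries share conditions and depth. For Slc6a19 they were Acaa2 (0.934), Fbp1 (0.931) and Gatm (0.928), for Slc6a18 Napsa (0.904), Gm4450 (0.897) and Lrp2 (0.850), and for Slc3a1 Prdx3 (0.870), Tmem59 (0.866) and Ugt3a2 (0.864). For Slc7a9 they were Slc22a5 (0.823), Cyp4a10 (0.819) and Prodh (0.790), and for Slc7a13 Acsm3 (0.954), Cyp2j13 (0.946) and Eri2 (0.945). Slc1a1 was most like 4430402I18Rik (0.907), with which it shares exon bases, then Mtfr1 (0.861) and Gpm6a (0.858). The exit carriers Slc7a7 and Slc7a8 were the pair of members most alike from the side of Slc7a7 (0.751), and Slc3a2 was most like Alpl (0.743) and Slc6a6 most like Lcp1 (0.644). After removal of group and title form means, the pairs of members with the highest r over 75 libraries were Slc6a18 with Slc3a1 (0.668), Slc7a7 with Slc7a9 (0.638) and Slc7a9 with Slc3a2 (0.619). The r largest in size was negative, at -0.727 for Slc6a18 with Slc7a13, the member that varied with the sex-linked genes.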

How the data were processed

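Whole-kidney RNA was analysed from the 1 deposited table of read counts per gene, whole numbers without normalization in 75 columns, all matched to a sample by its title. To make these counts the authors prepared each sample in 4 wells, merged the reads, and, per the submitters' processing notes, used STAR 2.7.3a, UMI-tools 1.1.4 and featureCounts (Subread 1.4.6-p5) on mm10. No source used here names the annotation release or the strand setting. Replicates were libraries of 1 group. No 2 of the libraries were identical, and p-values measure the spread between libraries.

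Each arm was fitted over its 4 groups with edgeR 4.0.16 (R 4.3.3), with TMM, filterByExpr by group, glmQLFit without legacy dispersions and glmQLFTest. P-values were Benjamini-Hochberg adjusted over all genes of the arm, with 0.05 as the threshold. The SE was the size of the log2 fold change divided by the square root of F, and 95% intervals were the estimate and that SE times the t quantile at the degrees of freedom of the quasi-likelihood test. The procedure was run on simulated counts with known changes, as many up as down. These counts held no effect of title form, sex-linked genes or mixed libraries, so such effects were not tested by it. The paper's exact test, DESeq2 1.42.0, filters, covariates, thinning, a replicate block and leaving out libraries were alternatives. Library titles sharing a number correlated in their deviations from group means, at 0.201 to 0.465 in 3 pairs of the ABTAA arm and 0.101 to 0.557 in 8 pairs of the Veptp arm, so the numbers were taken to pair samples, although 4 of the Veptp pairs carry different genotype labels. Titles with different numbers ran from -0.317 to 0.153 (median -0.276, 6 pairs) in the ABTAA and from -0.554 to 0.450 (median -0.055, 56 pairs) in the Veptp arm. Libraries sharing a number also held the same class of sex-linked genes, except G_4 with H_4. A shared mouse and a shared sex therefore cannot be told apart by these correlations.

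The text names every member, up to 4 genes of each list with the lowest p in IgG mice or between Pdgfb UUO groups, and the 3 genes most like a member. The members and the lists were chosen with earlier results of these data known. The lists were partners in trafficking, other amino acid transporters, brush border peptidases, the ATF4 response, osmolyte and taurine genes, and markers of the proximal tubule, its last segment, the loop to collecting duct, podocytes, endothelium, mesenchyme, leukocytes, fat, injury and sex. The result of 1 listed gene is not reported here.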

Additional observations from a re-analysis of the deposited data

Results flagged for a closer look

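Among 120 checks of a member in a group, 6 values stood far from the rest of their group, in the libraries N_9, B11, B10 and F10. Chance alone gives such a gap in about 1 of 20 groups. In ABTAA CL kidneys library N_9 was the highest for Slc6a19 (735 CPM) and Slc6a18 (1186 CPM). In the Pdgfb arm Slc7a13 stood apart in B11 of the Pdgfb WT UUO group (53.9 CPM), in B10 of the Pdgfb iKO CL group (531 CPM) and in F10 of the Pdgfb iKO UUO group (597 CPM). Of the Pdgfb iKO CL libraries B10 held Y-linked genes alone and the other 3 Xist alone. B11 and D11 held both Xist and Y-linked genes, while the other 2 Pdgfb WT UUO libraries held Xist alone. All 4 Pdgfb iKO UUO libraries, F10 included, held both. B11 was also the lowest of its group for Slc3a1 (280 CPM).

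For 2 members the response to UUO differed between Pdgfb iKO and Pdgfb WT mice by the test of the difference itself (edgeR, Benjamini-Hochberg adjusted). The difference was 1.25 for Slc6a19 (adjusted p = 0.0149) and 0.63 for Slc3a1 (adjusted p = 0.0284) on the log2 scale. Over all genes 6.66% were called higher. The Slc6a19 call was lost without A12 (adjusted p = 0.0537), and the Slc3a1 call without A5, E10, A11, B11, E11 or A12. Without TMM factors 0 members were called.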

How the results depend on the processing

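Numbers of members called moved most with depth, scaling and title form. Thinned to the shallowest library of the arm, 1 member was called in IgG, 0 in ABTAA, 1 in Veptp WT, 0 in Veptp iECKO and 0 in Pdgfb iKO mice with UUO, 1 between Pdgfb UUO groups and 1 for the Pdgfb interaction. Without TMM factors the numbers were 2 in ABTAA, 0 in Veptp iECKO, 2 between Pdgfb UUO groups and 0 for the interaction. Without a filter beyond 1 count they were 1 between ABTAA and IgG UUO kidneys, 1 in Veptp WT mice and 1 between Pdgfb CL groups. Plain titles alone gave 0 in ABTAA, 1 in Veptp WT and 0 in Veptp iECKO mice, split titles alone gave 4 in Veptp iECKO mice, and the form as a covariate gave 5 in Veptp WT and 5 in Veptp iECKO mice. Xist as a covariate gave 2 in Veptp iECKO, 2 in Pdgfb iKO and 4 for the interaction, and Y-linked genes as a covariate gave 2 and 0 in the first pair. DESeq2 gave 2 in Veptp iECKO and 2 in Pdgfb iKO mice, and the exact test 1 in Veptp WT mice. The cause of these shifts was not tested. No share over all genes is given here for split titles alone, for DESeq2, or for the form, Xist or Y-linked genes as covariates. Whether those counts follow a general shift in calls was not tested. Depth limits single genes, the shallowest library holding 172827 counts.

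With the replicate block 5 members were called in Veptp WT mice (Slc6a19 -1.49, Slc3a1 -0.44, Slc1a1 -0.52, Slc6a6 0.48 and Slc7a13 -1.99) and 4 in Veptp iECKO mice (Slc6a19 -1.32, Slc7a8 -0.91, Slc3a1 -0.40 and Slc1a1 -0.43). Beyond these it changed the call of 1 member, Slc7a8 in ABTAA-treated mice (-0.78).

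Leaving out each library in turn gave 7 to 8 members in IgG, 3 to 5 in ABTAA, 1 to 3 in Veptp WT, 1 to 3 in Veptp iECKO, 6 to 8 in Pdgfb WT and 0 to 2 in Pdgfb iKO mice, 2 to 6 between Pdgfb UUO groups, 0 to 3 for the interaction and 0 elsewhere. Signs turned within ranges of -0.24 to 0.062 for Slc3a2 in Veptp iECKO, -0.23 to 0.024 for Slc7a7 in Veptp WT, -0.15 to 0.048 for Slc6a6 and -1.04 to 6.19 for Slc7a13 in Pdgfb iKO mice, -0.16 to 0.43 for Slc6a19 between Veptp UUO groups, and -0.13 to 0.094 for Slc3a2 and -0.053 to 0.30 for Slc7a7 in the interaction.

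Small values also turned sign. Thinning gave 0.024 for Slc3a2 in IgG, 0.087 for Slc7a7 in ABTAA, 0.10 for Slc7a7, 0.28 for Slc7a8 and 0.070 for Slc7a9 in Veptp WT, 0.010 for Slc3a2 in Veptp iECKO mice, -0.11 for Slc6a19 between Veptp UUO groups, and -0.058 for Slc7a7 and 0.11 for Slc3a2 in the interaction. Without TMM factors Slc7a7 was 0.14 and Slc7a8 0.022 in Veptp WT, Slc3a2 0.025 in Veptp iECKO and 0.051 in Pdgfb WT, Slc6a6 0.024 in Pdgfb iKO mice, Slc7a7 -0.067 and Slc3a2 -0.052 between Pdgfb UUO groups, and Slc7a7 -0.18 and Slc7a8 -0.026 in the interaction. Split titles alone gave -0.025 for Slc3a2 in ABTAA, 0.31 for Slc7a7 in Veptp WT mice and -0.22 for Slc6a19 between Veptp UUO groups. In Veptp iECKO mice plain titles gave 0.14 for Slc7a7 and 0.43 for Slc3a2, and Slc3a2 was 0.059 with the form as a covariate, 0.17 with the replicate block and 0.0020 with the genotypes of H_3, H_4, H_7 and H_8 exchanged. With Y-linked genes as a covariate Slc6a18 was 0.014 and Slc7a13 -0.90 in Pdgfb iKO mice and Slc3a2 0.0097 in the interaction.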
